A study of Mus musculus with 4 samples.

Results

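The natriuretic peptide genes and their receptor genes were examined in embryonic mouse kidneys that had lost Sall1, a zinc finger transcription factor gene of the kidney mesenchyme. The family was taken as 7 genes: the receptors Npr1, Npr2 and Npr3, the peptides Nppa, Nppb and Nppc, and Ostn, which encodes osteocrin. Its members were found on the array through the RefSeq accession of each probe, among 20018 genes that could be named in this way, and each member had 1 probe. The family was selected on the fall of Npr3 between control and Sall1 knockout kidneys, so the values of Npr3 are given as a description and carry no test. The other 6 genes were taken with it as its relatives, whatever their own values.

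Kidneys were collected at E13.5 from embryos of a hybrid of the 129 and C57BL/6 strains, with tamoxifen dosed 24 hours earlier, at E12.5, in both groups. The control group (titles naming flox) and the Sall1 knockout group (titles naming CreER) had 2 arrays each, made from 0.25 µg of total RNA per sample. CreER is a Cre recombinase that enters the nucleus only with tamoxifen. The treatment protocol names Sall1CreER for all 4 samples, but the titles name CreER for the knockouts only, and what drives CreER is not stated beyond that name. Whether control embryos carried CreER is thus unclear, and an effect of CreER and of the loss of Sall1 cannot be told apart. Nor do the labels say whether a sample was 1 embryo or a pool, and the p-values measure only the spread between these samples. In whole kidneys, fewer cells of a type and less RNA per cell cannot be told apart.

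Natriuretic peptides are small ring-shaped hormones that lower blood pressure and blood volume and promote salt excretion by the kidney. ANP and BNP act through NPR-A (Npr1) and CNP through NPR-B (Npr2), membrane receptors whose inner part is a guanylyl cyclase that makes cGMP. NPR-C (Npr3) binds the peptides too but has no cyclase part. It takes them into the cell for breakdown and can signal through inhibitory G proteins, and osteocrin competes for it. In the adult kidney podocytes are a known site of Npr3.

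The sequences upstream of the measured members are shown to let them be read side by side, among them Nppa and Nppb, which lie next to each other on chromosome 4. Nothing tested here links these sequences to the values. RefSeq windows on GRCm38.p6 were at hand for 6 of the 7 members, and the 250 bases before the annotated start are printed, 5′ to 3′ on the strand of the gene. Capitals mark TATAAA, the TATA box word, and GATAA, the core word of GATA factors, on either strand. In these 4 windows no copies of the words overlapped.
Npr3 upstream window, chr15:11907372-11907621, minus strand: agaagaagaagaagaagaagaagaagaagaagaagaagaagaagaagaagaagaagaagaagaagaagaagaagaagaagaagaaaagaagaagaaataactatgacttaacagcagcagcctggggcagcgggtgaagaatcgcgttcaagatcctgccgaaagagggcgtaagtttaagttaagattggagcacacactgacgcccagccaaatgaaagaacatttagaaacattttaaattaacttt
Npr2 upstream window, chr4:43631685-43631934, plus strand: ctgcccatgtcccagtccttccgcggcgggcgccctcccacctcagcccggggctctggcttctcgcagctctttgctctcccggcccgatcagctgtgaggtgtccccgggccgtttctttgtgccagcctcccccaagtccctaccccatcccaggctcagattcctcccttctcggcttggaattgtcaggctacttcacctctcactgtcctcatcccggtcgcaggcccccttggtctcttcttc
Nppa upstream window, chr4:148000472-148000721, plus strand: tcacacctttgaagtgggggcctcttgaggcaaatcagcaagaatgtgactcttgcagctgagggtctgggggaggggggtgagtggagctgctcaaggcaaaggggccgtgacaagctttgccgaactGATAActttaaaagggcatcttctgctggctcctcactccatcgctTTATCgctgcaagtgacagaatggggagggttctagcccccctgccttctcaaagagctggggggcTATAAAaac
Nppb upstream window, chr4:147985650-147985899, plus strand: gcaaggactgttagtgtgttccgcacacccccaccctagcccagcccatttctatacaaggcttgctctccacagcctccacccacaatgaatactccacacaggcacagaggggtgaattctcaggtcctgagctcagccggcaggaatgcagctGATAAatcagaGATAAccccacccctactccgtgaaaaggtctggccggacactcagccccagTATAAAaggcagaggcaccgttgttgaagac

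The Npr3 window opens with a run of AGA repeats and had 38.8% G or C, where the median over 32851 windows of the same length was 52.4%. The Npr2 window had 64.4%. Neither receptor window held TATAAA or GATAA. Both cardiac peptide windows held 1 TATAAA, which 12.4% of all windows hold, and 2 GATAA, which 22.6% hold in at least 1 copy. The Nppc window, not printed, also held 1 TATAAA but no GATAA. Counted from the annotated start, TATAAA began at -9 in Nppa, -31 in Nppb and -29 in Nppc. AATATT, an A/T-rich word of the kind that Sall family proteins bind, was searched on both strands as well. It stood in none of the 6 windows and in 6.17% of all windows.

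Of the receptors, Npr3 was the member with the lower signal in the knockout kidneys. Its processed signal, an intensity in arbitrary units, was 494 and 466.7 in control kidneys, against 189.3 and 179.7 in knockouts. Both knockout values lay far below both control values, and the arrays within a group were close to each other. The median pixel of the spot, before any background was taken off, was 563.5 and 548 in the controls and 251 and 256 in the knockouts, so the gap was there in the uncorrected spot. As log2 of the signal over the array's 75th percentile, Npr3 stood at -0.25 ± 0.030 (SD, n = 2) in control and -1.52 ± 0.027 (SD, n = 2) in knockout kidneys.

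The log2 difference of Npr3 was -1.26 ± 0.058 (SE of the limma fit), a 2.40-fold lower signal, with 41.6% of the control signal left. For scale, the second array of a group differed from its first by 0.043 (control) and -0.039 (knockout) for this gene. Of 25073 genes and unnamed sequences tested, 38 were at or below the difference of Npr3, or 0.152%. A signal at least 1.5-fold lower without overlap of the groups was found for 1.05% of all tested, and Npr3 is among them by the way it was chosen. With normexp background correction the difference was -0.99. Npr3 was well above background on all 4 arrays, and the position of its probe within the transcript was not at hand.

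**Figure D1:**
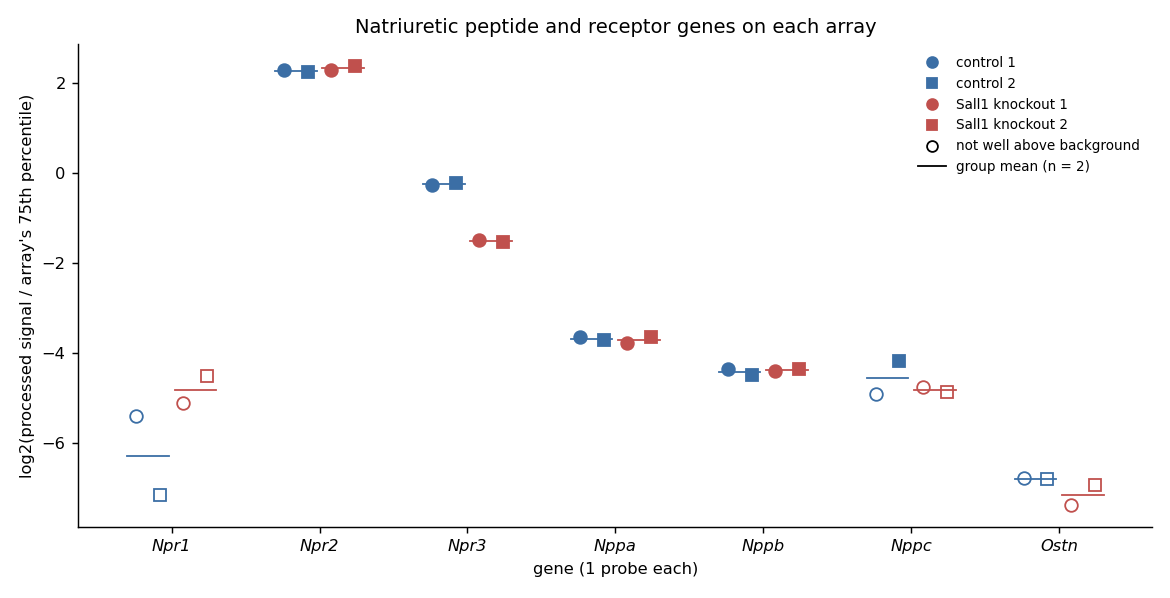
Log2 processed signal relative to the 75th percentile of the array, for the probe of each of the 7 genes on the 2 control (blue) and 2 Sall1 knockout (red) arrays. Lines are group means and open symbols are signals not well above background; heights of different genes are not comparable, since probes differ. Npr3 is lower in both knockout arrays, while the groups of Nppa and Nppb overlap.

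Npr2, the cyclase receptor for CNP, was bright in both groups. Its signal was 2890 and 2569.6 in control kidneys, against 2601.5 and 2696.5 in knockouts, so the raw values of the groups overlapped. After scaling, its log2 level was 2.25 ± 0.032 (SD, n = 2) in control and 2.33 ± 0.062 (SD, n = 2) in knockout kidneys. The log2 difference was 0.075 ± 0.065 (SE), with a 95% interval of -0.11 to 0.26, and did not pass in limma (adjusted p = 0.637 over all tested). Both scaled knockout values lay above both control values by a small margin, which was so, in either direction, for 49.2% of all tested. Npr3 was selected on its fall, so setting this interval beside the difference of Npr3 is no test of a contrast between the receptors.

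The ratio of the Npr3 to the Npr2 signal within an array needs no scaling between arrays. Its log2 value was -2.55 and -2.46 in control kidneys, against -3.78 and -3.91 in knockouts. The mean of the knockout arrays differed from that of the controls by -1.34 on the log2 scale. Since Npr3 was selected on its fall, the ratio is no further evidence of that fall. It combines the difference of Npr3 with the smaller, opposite one of Npr2, and does not give the relative abundance of the 2 transcripts.

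Npr1, the cyclase receptor for ANP and BNP, was well above background on none of the 4 arrays. Its signals were 14.0 and 3.82 in control kidneys, against 15.4 and 22.6 in knockouts. Values in this range have no order, and no fold is given. The lowest signal that counted as well above background was between 14.99 and 18.67 on the 4 arrays, and the marks also depend on the local background of the spot.

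Of the peptides, Nppa, which encodes ANP, was measured most often, since its probe was printed in 10 spots per array. The mean over its spots was 47.6 and 42.0 in control kidneys, against 39.2 and 41.9 in knockouts, and the scaled groups overlapped. Spots of 1 array ranged from 41.2 to 58.8 in control replicate 1 and from 31.0 to 46.7 in knockout replicate 1. Their coefficient of variation was 10.5% to 15.9% per array, with 9 spots in knockout replicate 2, where 1 was marked as an outlier and left out. The log2 difference was -0.026 ± 0.078 (SE), with a 95% interval of -0.25 to 0.195 (adjusted p = 0.897 in limma).

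**Figure D2:**
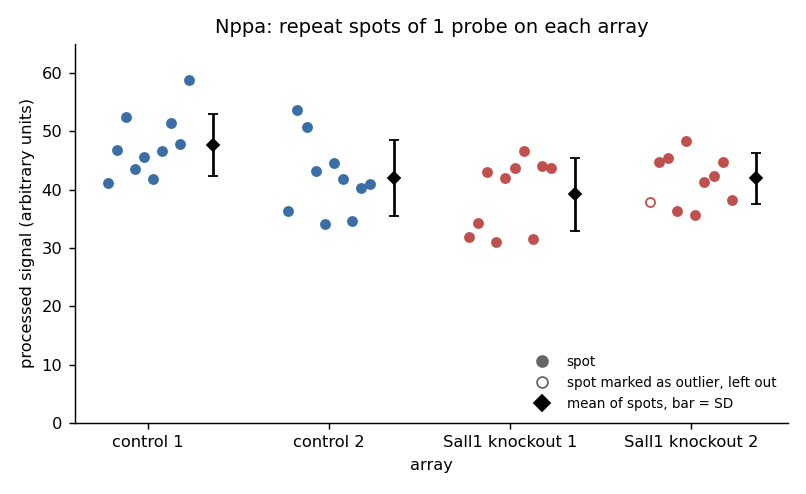
Processed signal (arbitrary units) of the 10 repeat spots of the Nppa probe on each array, with the mean and SD of the spots used as a black diamond and bar. The array means lie between 39.2 and 47.6, and the spots of the 4 arrays overlap; spots of an array are technical repeats.

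Nppb, which encodes BNP, lies beside Nppa and was also dim. Its signal was 28.9 and 24.3 in control kidneys, against 25.1 and 25.2 in knockouts, above background on all 4, and the groups overlapped. The log2 difference was 0.040 ± 0.072 (SE), with a 95% interval of -0.16 to 0.24 (adjusted p = 0.823 in limma). A variance prior that follows the signal changed the SE to 0.18 for Nppa and 0.23 for Nppb, to 0.079 for Npr3 and, in the other direction, to 0.055 for Npr2.

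Nppc, which encodes CNP, the ligand of the bright receptor Npr2, was at the edge of detection. Its signal was 19.6 and 29.9 in control kidneys, against 19.65 and 17.7 in knockouts. Only control replicate 2 was well above background, so the gene was not tested. Before scaling, the signal of control replicate 1 lay between those of the knockouts. After scaling it lay below both, at a log2 level of -4.93 against -4.76 and -4.88. No fold is given. Ostn was well above background on none, at 5.39 and 4.89 in control kidneys, against 3.20 and 4.22 in knockouts.

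In all, 4 of the 7 members were well above background on every array and were tested, 1 was so on a single array and 2 on none. Of the 3 tested members besides Npr3, limma called 0 at an adjusted p under 0.05, and 0 had an unadjusted p under 0.05. Over all tested the share called was 0%, with a smallest adjusted p of 0.0724, while 12.7% had an unadjusted p under 0.05. The prior that follows the signal called 300 of all tested but none of these 3 members. A lack of calls in this design says little about small changes, and little about large ones where the share called over all tested was 0%.

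**Figure D3:**
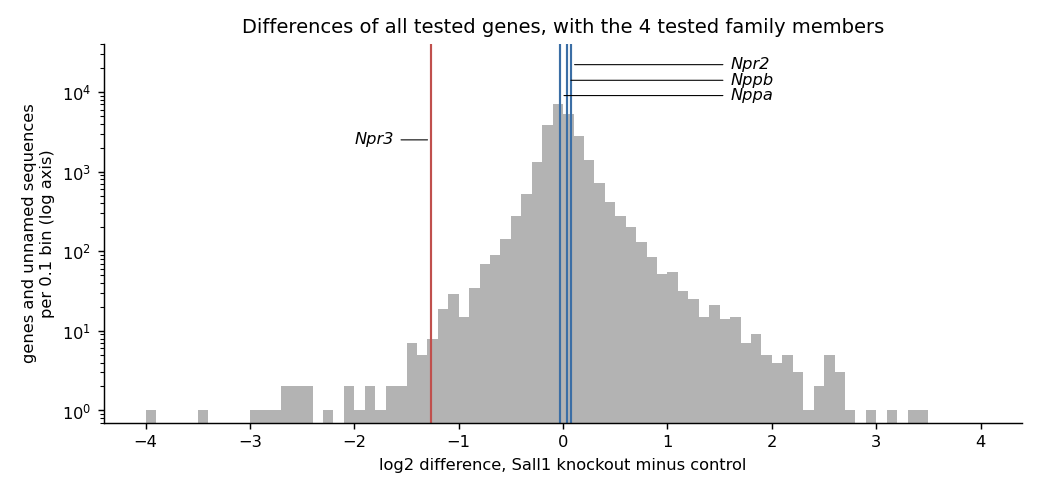
Histogram of the log2 difference, Sall1 knockout minus control, of all 25073 genes and unnamed sequences tested, in bins of 0.1 with a logarithmic count axis. Npr3 at -1.26 lies in the lower tail, and Nppa, Nppb and Npr2 lie near 0.

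Genes that act before and after the receptors were described from a list of 56 pathway genes, of which 43 were tested. Of these 24 were higher and 19 lower, with a median log2 difference of 0.033, beside -0.013 over all tested. Limma called 0 of them, while an unadjusted p under 0.05 was found for 7 higher and 2 lower genes (20.9% of the list, beside 12.7% of all tested). The 7 include Cngb3, which passed the background filter only through the knockout group, so its p-value is no support and raises the share of the list. The groups did not overlap for 51.2% of the list and for 49.2% of all tested. By fitted values, 1 gene was lower by at least 1.5-fold without overlap, Pde11a, and 1 was higher, Cngb3. The control signals of Cngb3 were not well above background, so that a difference of that size was not measured. Of all tested, 2.48% were higher by that rule and 1.05% lower.

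Among enzymes that make or break down the peptides, 5 of 8 were tested. Furin, a protease that cleaves peptide precursors, differed by 0.22 ± 0.058 (SE; adjusted p = 0.329), and the peptidase Dpp4 by 0.57 ± 0.096 (adjusted p = 0.242). Mme, or neprilysin, the main peptidase for natriuretic peptides, differed by 0.11 ± 0.14 (adjusted p = 0.752). Corin, the protease that activates ANP in heart, was not tested, since it was not well above background on both arrays of either group.

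Of the soluble guanylyl cyclase and nitric oxide synthase genes, the other route to cGMP, all 5 tested lay above 0, between 0.065 and 0.50. Gucy1a1, a cyclase subunit, had log2 levels of 2.09 and 2.28 in control kidneys, against 2.70 and 2.67 in knockouts. Its difference of 0.50 ± 0.087 (SE) did not pass in limma (adjusted p = 0.246), and passed under the prior that follows the signal (adjusted p = 0.0212). Its partner subunit Gucy1b1 differed by 0.15 ± 0.075 (adjusted p = 0.483).

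Of the cGMP-dependent kinases, Prkg2 stood at -1.58 and -1.62 in control kidneys, against -1.14 and -1.10 in knockouts, a difference of 0.48 ± 0.056 (SE; adjusted p = 0.191). The kinase Prkg1, of smooth muscle, differed by 0.58 ± 0.35 with overlap of the groups (adjusted p = 0.528). All 11 genes of the cGMP phosphodiesterase list were tested, with 7 below 0 and a median of -0.051. The list held Pde6d, at -0.090, but not Pde6a, Pde6b or Pde6c. Pde11a was dim, with log2 levels of -3.44 and -3.48 in control kidneys, against -4.01 and -4.40 in knockouts. It was 1.67-fold lower (log2 difference -0.74 ± 0.15, SE, adjusted p = 0.283 in limma). Its other probe, well above background on no array, differed by -0.45. Pde1a differed by -0.40 ± 0.11 (adjusted p = 0.346), and Pde5a, the cGMP-specific enzyme, by -0.095 ± 0.063 (adjusted p = 0.555).

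Of the cGMP-gated channel subunits, Cngb3 was not well above background in either control. Its mean knockout signal was 1.49-fold above the lowest signal that counted as well above background on the control arrays. That fold is no strict lower bound. Cngb3 entered the fit only through the knockout group, where it was detected, and its p-value is not given as support. Cngb1 differed by 0.31 ± 0.066 (SE; adjusted p = 0.290). The cGMP exporter Abcc5 differed by 0.18 ± 0.073 (adjusted p = 0.429); its 3 other probes differed by 0.15, 0.099 and -0.039. The inhibitory G protein genes Gnai1, Gnai2 and Gnai3, which NPR-C can signal through, lay between -0.11 and 0.023. Of the cardiac regulators of Nppa and Nppb, 3 of 6 were tested, among them Mef2c at 0.27 ± 0.077 (adjusted p = 0.354) and Gata4 at -0.36 ± 0.325 (adjusted p = 0.654).

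**Figure D4:**
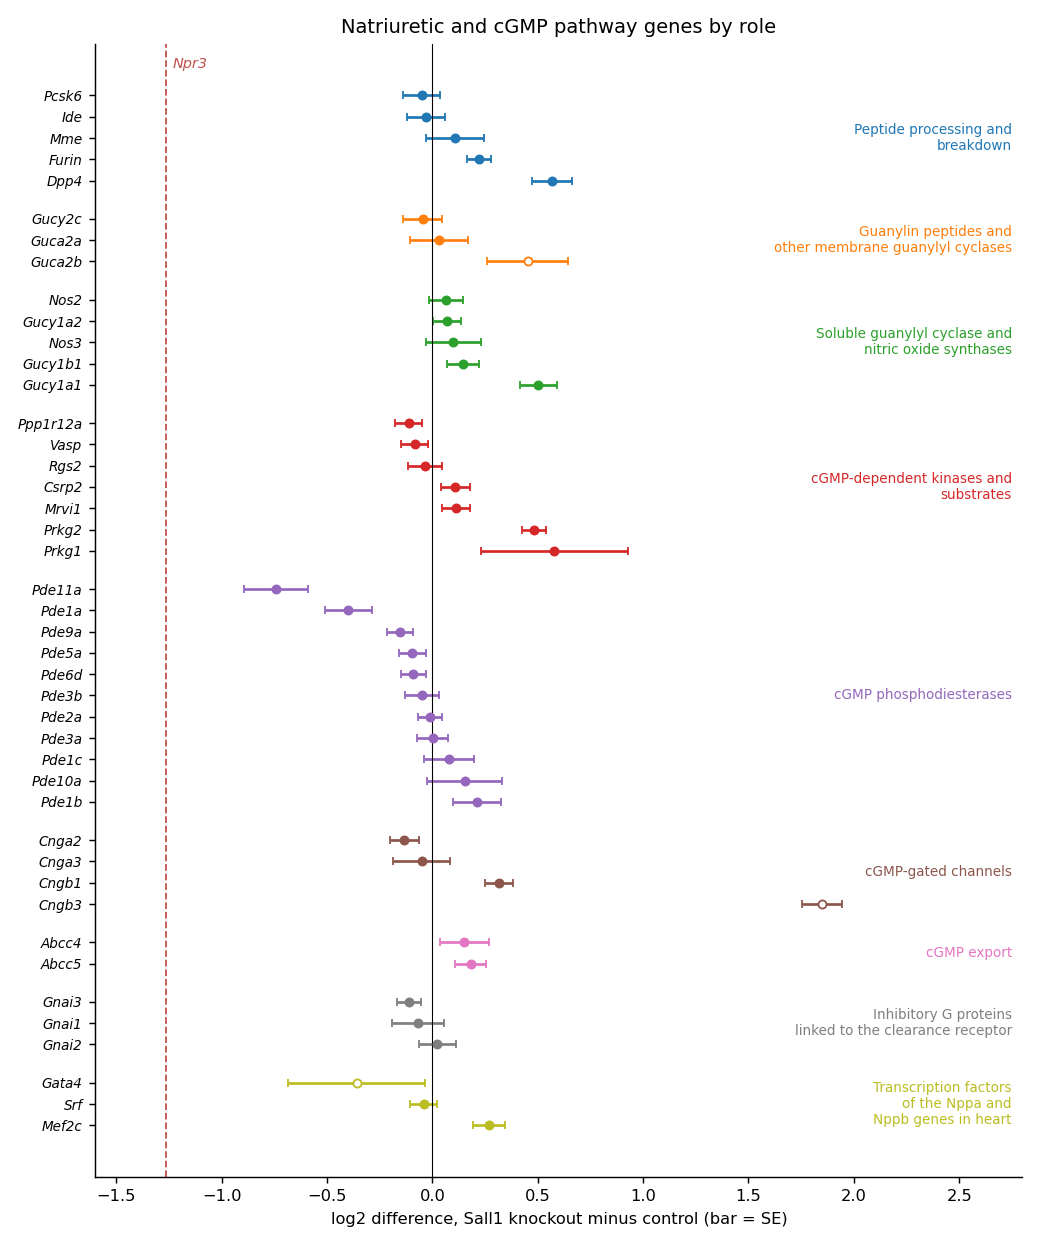
Log2 difference, Sall1 knockout minus control, with its SE from limma, of the 43 tested pathway genes grouped by role. Open symbols were not well above background on all 4 arrays, and the dashed line marks Npr3, which was selected on its fall. The lowest pathway gene was Pde11a at -0.74. The plotted 1.85 of Cngb3 uses control signals not well above background and is no measured size.

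The genes whose pattern over the 4 arrays was most like that of Npr3 were found by the Euclidean distance between log2 values centred on each gene's mean. The 5 nearest named genes were Fam155a (distance 0.146), Moxd1 (0.159), Snap91 (0.172), Insyn2b (0.200) and Krt23 (0.244). Their log2 differences were -1.297, -1.12, -1.11, -1.25 and -1.03. Moxd1 encodes a monooxygenase-like protein, Snap91 a clathrin assembly protein and Krt23 a keratin. The measure rests on 4 arrays and 2 groups, so any gene with a similar fall and tight replicates scores as near.

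**Figure D5:**
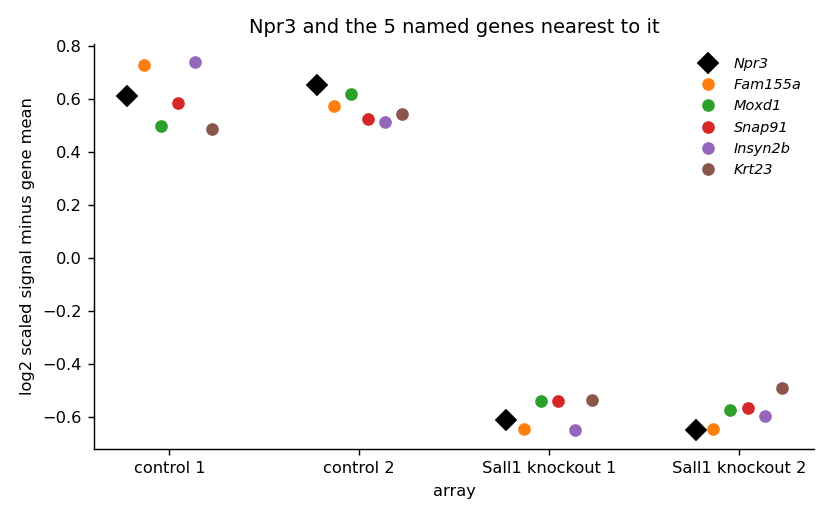
Log2 scaled signal minus the mean of each gene on the 4 arrays, for Npr3 (diamonds) and the 5 named genes at the smallest distance to it (circles). All 6 genes lie above 0 in both control arrays and below 0 in both knockout arrays.

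Markers of kidney cell types and adjoining tissues are given by their counts and medians, beside a median of -0.013 over all tested. Of the nephron progenitor markers 9 of 10 were lower and 8 of 10 without overlap of the groups (6940 of all 25073 tested were lower without overlap), with a median log2 difference of -0.54 and a mean level of 2.96 to 3.03 in control and 2.28 to 2.41 in knockout arrays. The podocyte markers, by contrast, had a median of 0.20 with 8 of 10 higher, and a mean level of -2.24 to -2.16 in control and -1.94 to -1.90 in knockout arrays. Limma called 0 genes of any marker list. Progenitor markers ranged from -2.20, which was Cited1, to 0.062. Podocyte markers ranged from -0.099 to 0.83, with Ptpro, a podocyte phosphatase, at 0.74. Both named genes lay far from the median of their list. Medians were 0.11 for stroma, 0.25 for mural cells, 0.18 for endothelium, 0.10 for ureteric bud and -0.049 for nascent nephrons. Liver markers had a median of 1.80 (9 of 9 higher), with a mean level of -1.05 to -0.0072 in control and 1.22 to 1.24 in knockout arrays. Medians were 1.26 for skeletal muscle (7 of 7 higher), 0.54 for macrophages (6 of 6), 0.19 for erythroid cells, 0.090 for cartilage and bone and -0.19 for adrenal gland. Arrays of the same group differed in some of these tissues. The mean level of skeletal muscle markers was 0.63 and -0.54 in control arrays, against 1.505 and 0.93 in knockouts. That of erythroid markers was 3.44 and 4.98 in control arrays, against 3.935 and 4.93 in knockouts. Cardiac muscle markers, those of the tissue that makes most ANP and BNP, had a median of 0.24 over 5 of 9 tested, and Nkx2-5, Ryr2 and Pln were well above background on none of the 4. The part of any of these cell types in the signal of Npr3 or its relatives was not tested.

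Sall1 itself was 1.68-fold lower, with log2 levels of 1.79 and 1.81 in control kidneys, against 1.03 and 1.07 in knockouts (adjusted p = 0.126 in limma). It passed with normexp (adjusted p = 0.0383) and with the prior that follows the signal (adjusted p = 0.00143). Its single probe checks the deletion only if it lies in the deleted part, which is unknown here. Between 60.6% and 64.2% of spots were well above background on the 4 arrays, and Pearson's r across genes, which are not independent replicates, was 0.9952 and 0.9964 within groups and 0.9932 to 0.9945 between them. The number of arrays limits the precision of every value.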

How the data were processed

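RNA of 2 control and 2 Sall1 knockout kidney samples was hybridised to 4 one-colour Agilent arrays on 1 slide in 1 scan. Per the file headers, the deposited scanner files come from Feature Extraction 10.7.3.1 for design 028005, built on mm9. Its processed signal is a linear intensity, corrected within the array and not scaled between arrays. The deposited value table repeats these intensities: 100% of 55249 single-spot rows lay within 1% of the scanner signal. Such background correction makes ratios of dim probes unsteady.

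Signals of non-control spots, outlier spots left out, were divided by the 75th percentile of the array and set to log2, and spots of a probe were averaged. A probe was kept where both arrays of a group, either one, had it well above background. Symbols came from RefSeq (GRCm38.p6) for 26413 of 55681 probes, and the probe with the highest mean stood for a gene. Tests were two-sided and used lmFit and eBayes of limma 3.58.1 under R 4.3.3, with 2 residual and 1.79 prior degrees of freedom. The Benjamini-Hochberg adjustment ran over all 25073 genes and unnamed sequences. For genes not well above background on either array of a group, folds are taken against the lowest signal well above background, or the gene's own where higher. They are no strict lower bounds, since some spots above that signal were not marked as well above background.

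The members, pathway genes, markers and tests were chosen with earlier results of these data known. Genes were named by rule: all members, Sall1, the 10 pathway genes with the smallest unadjusted p, up to 2 markers per list and the 5 genes nearest to Npr3. Mme, Corin, Gucy1b1, Prkg1, Pde5a, Gata4 and the Gnai genes were added after their values were seen. Only 2 marker genes are named with values. Alternatives were normexp (offset 50, on the median spot signal, since the mean signal was not among the columns used), quantile or median scaling, other background filters, outlier spots kept, other uses of a gene's probes, a trended robust prior, array weights, the deposited table, each array left out, a 2-fold limit and an adjusted p under 0.1.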

Additional observations from a re-analysis of the deposited data

How the results depend on the processing

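The fall of Npr3 kept its direction in all 15 alternatives, at -0.99 with normexp, -1.303 with median centring and -1.28 to -1.24 with 1 array left out. Npr2 lay between 0.032 and 0.12. Nppa turned to 0.052 with normexp and ranged from -0.097 to 0.044 with 1 array left out. Nppb turned to -0.029 with quantile normalization and ranged from -0.022 to 0.10 with 1 array left out. None of the 3 was called in any alternative.

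The count of genes called was 21 at an adjusted p under 0.1, 41 with normexp and 300 with the trended robust prior, and 0 with each array left out. Of pathway genes, 1 was called at an adjusted p under 0.1 (Cngb3) and 1 with the trended robust prior (Gucy1a1). Neither control of Cngb3 was well above background, so that its call rests on unmeasured control levels. Genes at least 1.5-fold apart without overlap numbered 887, and 231 with normexp, 2927 with no background filter, 585 above background on all 4 arrays, 279 at 2-fold and 1453 to 1648 with 1 array left out, where 1 array stands for a group. The cause of the changed counts was not tested. No paired analysis was possible because the labels give the groups no shared replicate numbers. Npr1, Nppc and Ostn are limited by their signal over background.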
